A study of Homo sapiens with 8 samples.

Results

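The 10 genes examined here, GATA4, GATA6, LHX2, WT1, TCF21, HAND2, MEF2A, MEF2C, FOXF1 and FOXF2, encode transcription factors of the hepatic stellate cell (HSC) lineage. They were chosen by name, and the accessible sites of each gene were taken from its body with 50 kb on each side. These windows held 74 of the 75501 consensus sites of the series, a consensus site being a region where peaks of at least 2 libraries overlapped, and another 22 regions had a peak in 1 library. Chromatin accessibility was measured with ATAC-seq, in which the Tn5 transposase inserts adapters into open DNA, in LX-2 cells. LX-2 is an immortalised line of human HSCs with a wild-type genotype, so that all groups came from 1 line. The cells were moved from tissue culture plastic to fibronectin-coated polyacrylamide hydrogels of about 2 kPa (soft) or about 40 kPa (stiff) and collected on day 2 (D2) or day 4 (D4). The 4 groups of stiffness and day had 2 replicate libraries each.

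Stellate cells arise from the mesothelium and mesenchyme of the septum transversum, and the factors of this list act at different steps of that lineage. WT1 marks the mesothelium, GATA4 and GATA6 are zinc-finger factors of the liver mesenchyme, and LHX2 is a LIM homeodomain factor whose loss in mice leads to HSC activation and fibrosis. TCF21 and HAND2 are basic helix-loop-helix factors that bind E-boxes, MEF2A and MEF2C are MADS-box factors held back by class IIa histone deacetylases, and FOXF1 and FOXF2 are forkhead factors of the gut and liver mesenchyme.

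The lists held 29789 to 72840 peaks. D2 soft replicate 1 stood apart with the shortest list and an estimated background of 0.780 fragments per kb, against 2.08 to 3.15 in the other libraries, so the counts that it bears on most are also given without it. Fold enrichment here is the fragment pileup at a peak's summit over the local background of the same library, and the place of a peak is its rank by −log10 p within its own list, as a percentage from the top. Both are strictly comparable within a list only. Promoters were taken within 1 kb of an annotated start. Of 15 stellate and mesenchymal markers listed, 6 had a promoter peak in every library, against 46.0% of protein-coding genes. These were COL1A1, ACTA2, TAGLN, TIMP1, SPARC and PDGFRB. The promoters of DES, LUM and DCN had no peak in any library, as did 27.7% of protein-coding genes. LRAT, an enzyme of retinoid storage in quiescent HSCs, had one in 1 library. Of 9 hepatocyte markers 0 had a promoter peak in every library and 4 had one in some libraries. The other 5, among them ALB, HNF4A, APOA1 and FOXA2, had none in any. Markers of other cell types were also open in part. Among the 7 macrophage markers CD68 and CD14 had a promoter peak in every library and CSF1R in 7, while SPI1, PTPRC and LYZ had none. Of 6 cholangiocyte markers KRT7 had one in 8 libraries, SOX9 in 7 and EPCAM in 6, and the other 3 in none. Of the 6 endothelial markers found in the annotation KDR had one in 7 libraries, CDH5 in 4 and TEK in 2, and the mesothelial markers LRRN4, CALB2, UPK3B and MSLN had one in 4, 3, 2 and 0. Their part in the results below was not tested.

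To show the DNA behind the results, 5 sites outside the main promoters are printed as the 201 bases around the summit of their best-ranked peak, from the plus strand of hg19. The GATA6 +54.2 kb site (chr18:19803440-19804077) had peaks in 6 libraries and none on the soft matrix at D2, and the GATA6 +61.2 kb site (chr18:19810562-19810957) had peaks in the 4 stiff libraries alone. The LHX2 +43.1 kb (chr9:126816865-126817505) and MEF2A +142.7 kb (chr15:100248495-100249322) sites were among the highest-ranked sites found in every library, and the MEF2C +97.6 kb site (chr5:88080734-88082132) is an alternative promoter with a MEF2 sequence. Distances run from the main start of the gene, in its direction of transcription, to the middle of the site. Capitals mark any of 8 motifs searched on both strands. For the lineage factors these were the letters AGATAA bound by GATA proteins and TGTTTAC bound by forkhead proteins. The E-box searched was CAGATG, the homeodomain letters were TAATTA, and the MEF2 motif was its palindromic consensus. The other 3 were TGANTCA for AP-1, the TEAD letters GGAATG, and GGGCGG, known as the GC box.
GATA6 +54.2 kb: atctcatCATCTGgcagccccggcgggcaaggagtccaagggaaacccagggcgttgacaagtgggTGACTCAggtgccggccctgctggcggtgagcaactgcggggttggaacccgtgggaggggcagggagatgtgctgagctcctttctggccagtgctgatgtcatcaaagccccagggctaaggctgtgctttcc
GATA6 +61.2 kb: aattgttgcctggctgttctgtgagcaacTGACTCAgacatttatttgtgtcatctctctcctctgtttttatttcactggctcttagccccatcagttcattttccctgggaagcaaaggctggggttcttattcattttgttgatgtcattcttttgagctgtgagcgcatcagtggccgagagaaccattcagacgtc
LHX2 +43.1 kb: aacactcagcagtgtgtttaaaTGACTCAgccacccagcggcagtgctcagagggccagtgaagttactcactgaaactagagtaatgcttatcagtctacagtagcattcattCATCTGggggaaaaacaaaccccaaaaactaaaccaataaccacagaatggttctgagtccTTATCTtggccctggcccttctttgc
MEF2A +142.7 kb: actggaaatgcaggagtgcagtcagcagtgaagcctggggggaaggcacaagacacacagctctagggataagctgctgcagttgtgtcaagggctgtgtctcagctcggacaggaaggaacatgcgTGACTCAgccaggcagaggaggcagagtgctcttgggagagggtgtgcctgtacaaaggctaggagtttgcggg
MEF2C +97.6 kb: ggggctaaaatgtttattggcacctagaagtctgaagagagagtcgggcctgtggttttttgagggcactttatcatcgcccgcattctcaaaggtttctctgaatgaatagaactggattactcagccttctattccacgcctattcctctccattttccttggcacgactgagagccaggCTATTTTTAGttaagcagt

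The AP-1 letters stood in 4 of these 5 windows, GATA6 +54.2 kb, GATA6 +61.2 kb, LHX2 +43.1 kb and MEF2A +142.7 kb. Over all member sites they were found in 22 of 74 (29.7%), against 38.9% of all consensus sites. The E-box letters were in the GATA6 +54.2 kb and LHX2 +43.1 kb sites, and in 10.8% of member sites against 16.1% of all sites. The GATA letters stood in the LHX2 +43.1 kb site, with shares of 10.8% and 10.7%. The MEF2 letters were found at 4 member sites (5.4%, against 2.5%), in the windows of GATA4, WT1 and MEF2C. TEAD letters were held by 23.0% of member sites against 19.1%, and the GC box by 21.6% against 16.2%. The forkhead and homeodomain letters were held by 1 member site each (1.4%), against 3.0% and 3.2% of all sites. A match is a string of letters and not an occupied site.

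The windows differed in how many sites they held. The median was 7.5 sites a window, or 4.81 per 100 kb, against 6 and 3.93 over 20163 protein-coding genes. HAND2, a short gene, had the densest window with 9 sites, 8.55 per 100 kb, and GATA4 followed with 12 sites (6.56 per 100 kb), of which 5 lay at promoters of its neighbours, among them NEIL2 and FDFT1. TCF21 and FOXF1 had 2 sites each, 1.88 and 1.91 per 100 kb. MEF2C had the most sites, 14, in a window of 287 kb. By class, 11 of the 74 sites were main promoters, 9 alternative promoters of a member, 14 promoters of another gene and 40 distal. Main promoter sites had a median of 69.2% GC, distal sites 49.5% and all consensus sites 48.3%.

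**Figure D1:**
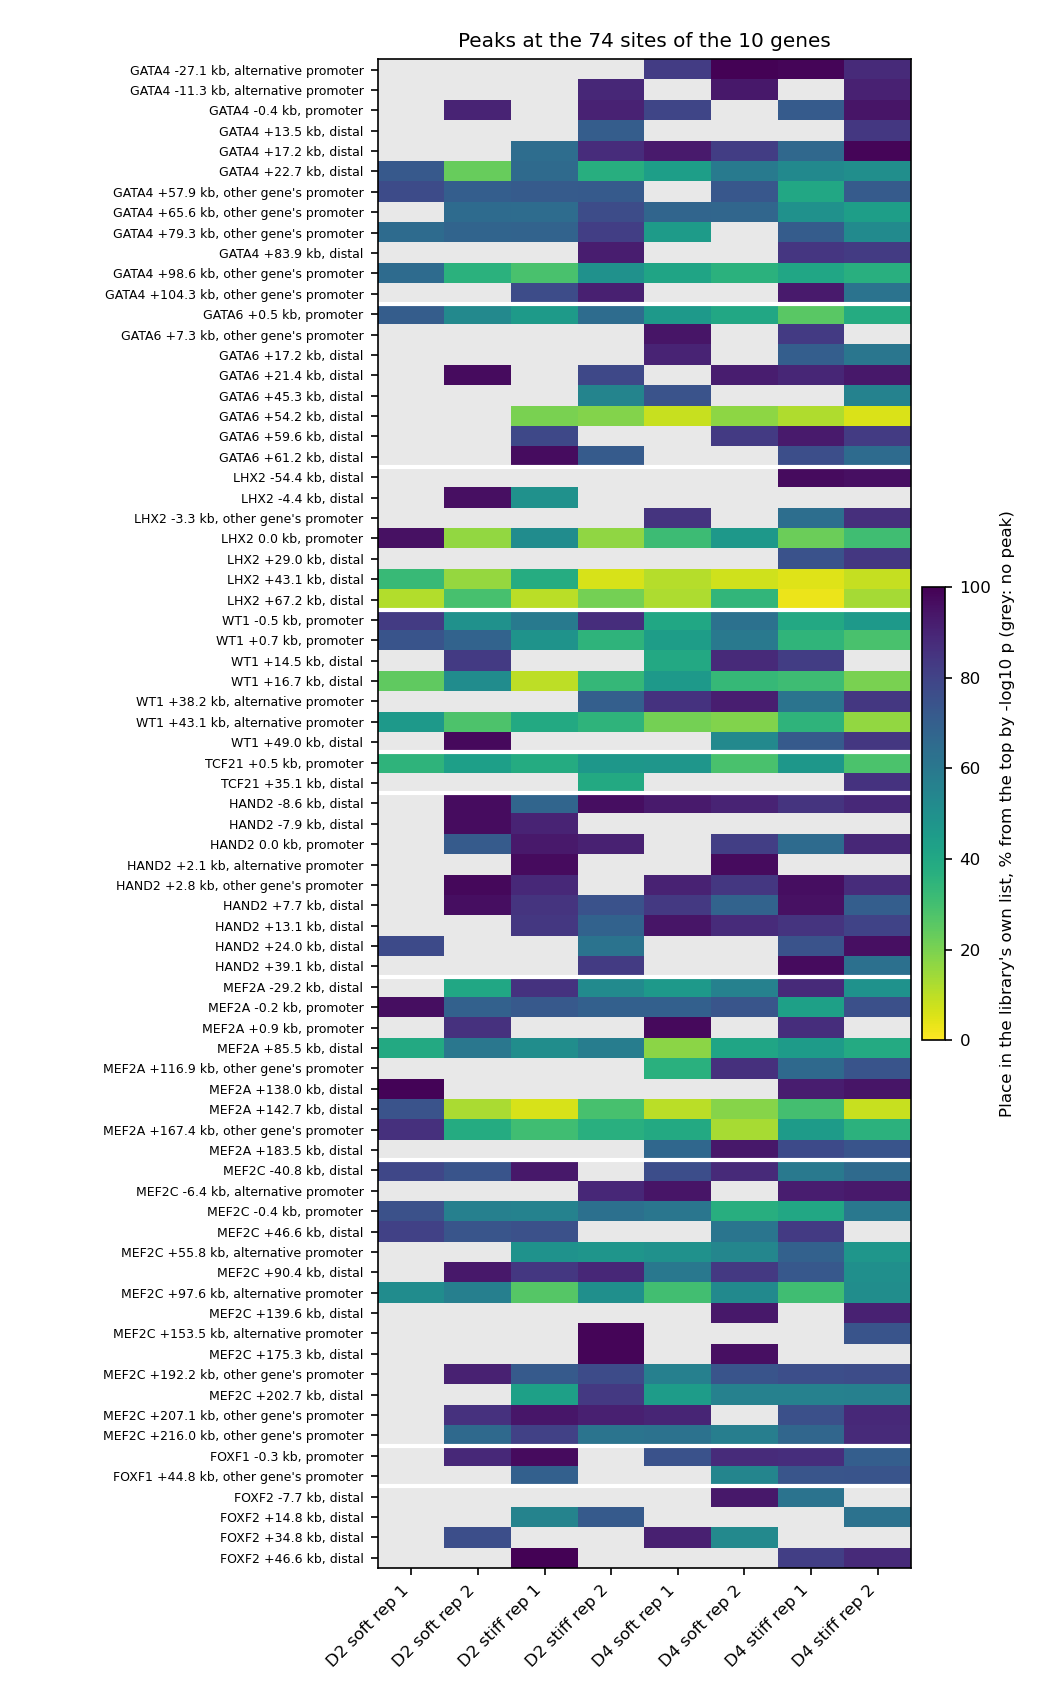
Peaks at the 74 sites (rows, named by gene, distance from the main start in kb and class) in the 8 libraries (columns). Colour gives the place of the site's best peak in the library's own list, from the top (yellow) to the end (dark), and grey means no peak. The GATA6 +54.2 kb row is grey in both D2 soft libraries and bright in the other 6, and the 2 LHX2 rows at +43.1 and +67.2 kb are bright throughout.

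Peaks at the member sites were mostly weak. The median place of the member peaks lay between 64.5% and 74.1% of the list in the 8 libraries, below the middle of the list in each of them. The median fold enrichment of member peaks was 5.03 in D2 soft replicate 1 and 5.34 to 6.19 in the others, against 6.18 and 6.79 to 7.96 for all peaks of the same lists. By mean place over the libraries with a peak, 38 of 74 sites were past 75% of the lists and 4 within the top 25%: GATA6 +54.2 kb, LHX2 +43.1 kb, LHX2 +67.2 kb and MEF2A +142.7 kb. A peak was found in every library at 17 sites (23.0%), against 32.1% of all consensus sites. Without D2 soft replicate 1 it was 24 sites (32.4%, against 47.3%). The 17 sites lay in 7 windows, 4 each at WT1 and MEF2A, 3 at LHX2, 2 each at GATA4 and MEF2C and 1 each at GATA6 and TCF21, with 0 at HAND2, FOXF1 and FOXF2. When D2 soft replicate 1 was left out, MEF2C had 5, MEF2A 5, GATA4 3 and HAND2 2, the other windows keeping their number.

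The promoters of the 10 genes fell into 3 classes. GATA6, LHX2, WT1, TCF21, MEF2A and MEF2C had a peak with its summit within 1 kb of an annotated start in every library, 6 of 10 genes against 46.0% of protein-coding genes. Leaving out D2 soft replicate 1, it was again 6 of 10, against 57.0%. GATA4, HAND2 and FOXF1 had one in 6 libraries each. FOXF2 had none in any library, as did 27.7% of protein-coding genes. The 6 open promoters were of lower rank than usual, since the median place of their best peak was 41.8%, against 18.6% for all genes with a promoter peak in every library.

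**Figure D2:**
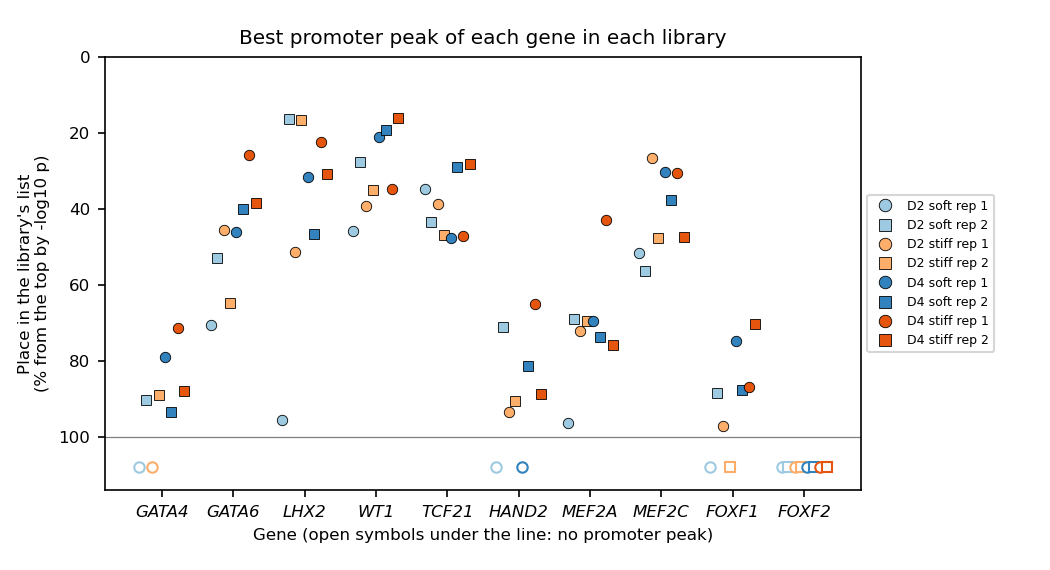
Place of the best promoter peak of each gene in each library's own list, as a percentage from the top by −log10 p (vertical axis, top of the list upwards), for the 10 genes. Filled circles and squares are replicates 1 and 2, and open symbols under the line mark libraries without a promoter peak. GATA6, LHX2, WT1, TCF21, MEF2A and MEF2C have 8 filled symbols and FOXF2 has none.

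Of the GATA pair, GATA6 had the open promoter. Its peak (chr18:19749064-19751047), which spans the start shared with the antisense transcript GATA6-AS1, had a fold enrichment of 5.03 and 7.27 on soft and 7.56 and 6.03 on stiff gels at D2, and 6.85 and 7.03 on soft and 8.48 and 7.31 on stiff gels at D4. At D4 both stiff values lay above both soft values, while at D2 and between the days of each matrix the groups overlapped. On the scale of within-library ranks, compared below as normal scores, the D4 groups overlapped too. The scores were -1.025 and -0.677 on soft and -0.656 and -1.192 on stiff gels. GATA4 had no promoter peak in D2 soft replicate 1 and D2 stiff replicate 1, and where it had one the best lay between 71.2% and 93.4% of the list. Its 5′-most annotated start, 27.1 kb upstream of the main start (chr8:11534193-11535110), had a peak in the 4 D4 libraries and in 0 of 4 D2 libraries, with fold enrichments of 5.13 and 3.20 on soft and 3.58 and 4.72 on stiff gels at D4. These peaks lay at 82.1% to 99.3% of the lists, close to the calling threshold. The strongest GATA4 site outside the neighbours' promoters was intronic, 22.7 kb downstream of the main start (chr8:11584093-11584760). It had a fold enrichment of 5.15 and 11.2 on soft and 6.13 and 9.56 on stiff gels at D2, and 8.04 and 6.41 on soft and 7.58 and 7.77 on stiff gels at D4. The replicates of each D2 group lay on both sides of the D4 values.

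The LHX2 promoter (chr9:126773728-126774272) gave fold enrichments of 3.75 and 10.2 on soft and 6.58 and 10.3 on stiff gels at D2, and 7.67 and 6.36 on soft and 8.10 and 7.82 on stiff gels at D4. Its lowest value was that of D2 soft replicate 1, at 95.5% of the list, and its places in the other libraries were 16.3% to 51.2%. Downstream of LHX2 lay a pair of strong intergenic sites. At +43.1 kb the fold enrichment was 7.73 and 12.5 on soft and 8.68 and 15.0 on stiff gels at D2, and 12.7 and 13.6 on soft and 16.7 and 14.2 on stiff gels at D4. At +67.2 kb it was 9.92 and 9.01 on soft and 11.9 and 9.90 on stiff gels at D2, and 10.9 and 7.75 on soft and 14.3 and 10.8 on stiff gels at D4. Both sites outranked the LHX2 promoter in every library but D2 soft replicate 2 and D2 stiff replicate 2, where the promoter placed above the +67.2 kb site.

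WT1 had 2 peaks around its main start (chr11:32455810-32456879 and chr11:32457080-32458041), the second on the side of the divergent transcript WT1-AS. Both were of low enrichment, 4.69 to 7.85 and 4.06 to 6.53 over the 8 libraries. The strongest WT1 site was an internal start 43.1 kb downstream (chr11:32413647-32414281), with a fold enrichment of 6.64 and 9.63 on soft and 8.48 and 8.85 on stiff gels at D2, and 10.2 and 10.5 on soft and 8.77 and 12.9 on stiff gels at D4. On the soft matrix both D4 values exceeded both D2 values. An intronic site at +16.7 kb (chr11:32440158-32440664) was found in every library as well, at 6.97 to 13.2.

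The TCF21 promoter (chr6:134210151-134211368), which also holds a start of the antisense transcript TARID, had a peak in every library. Its fold enrichment was 7.15 and 7.40 on soft and 8.06 and 7.49 on stiff gels at D2, and 6.61 and 7.69 on soft and 6.49 and 8.98 on stiff gels at D4, with places of 28.2% to 47.6%. D2 soft replicate 1 placed it at 34.8%, whereas the best promoter peaks of GATA6, LHX2 and MEF2A lay at 70.6%, 95.5% and 96.2% of that list. The other helix-loop-helix gene, HAND2, had 9 sites, 0 of them in every library and 2 in every library but D2 soft replicate 1. Its main promoter (chr4:174451138-174451542) lacked a peak in D2 soft replicate 1 and D4 soft replicate 1 and had fold enrichments of 3.81 to 5.48 in the other 6, and its 9 sites had mean places of 77.5% to 97.0%.

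The MEF2A promoter (chr15:100105663-100106378) was found in every library at fold enrichments of 3.52 to 8.15, the lowest in D2 soft replicate 1 and the highest in D4 stiff replicate 1. The strong MEF2A site was intronic. At +142.7 kb the fold enrichment was 5.05 and 12.2 on soft and 14.4 and 10.3 on stiff gels at D2, and 12.1 and 10.9 on soft and 9.43 and 15.0 on stiff gels at D4, with overlapping groups. MEF2C had a broad main promoter site of 2099 bp (chr5:88178401-88180499), at 4.94 to 7.79. Its alternative promoter at +97.6 kb was at 6.32 and 7.61 on soft and 10.9 and 8.77 on stiff gels at D2, and 9.96 and 6.76 on soft and 10.4 and 7.96 on stiff gels at D4, above the main promoter in 7 of 8 libraries, the exception being D4 soft replicate 2.

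The forkhead genes had no site in every library, with or without D2 soft replicate 1. The FOXF1 promoter (chr16:86543118-86544570) had fold enrichments of 3.60 to 4.97 in 6 libraries and no peak in D2 soft replicate 1 and D2 stiff replicate 2. FOXF2 had 4 distal sites, each in 2 or 3 libraries, and a peak at none of its promoters, although its promoter sequence is of the GC-rich kind with 75.2% GC within 250 bp of the main start, against a median of 64.9% over 18922 genes.

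The relatives and partners of the 10 factors gave a wider view of the same families. Of 28 such genes, 14 had a promoter peak in every library, against 46.0% of protein-coding genes. Another 11 had one in some libraries and 3 in none, against 27.7% of protein-coding genes with none. GATA2 had one in 8 libraries and GATA3 in 7, while GATA5 had one in 2 and GATA1 in 0. ZFPM2, a cofactor of GATA4, had one in 8. LHX9, the closest relative of LHX2, had one in 8 and LDB1, which bridges LIM homeodomain proteins, in 7. HAND1 had one in 1 library and MSC, the paralog of TCF21, in 0, whereas the E-protein partners TCF12 and TCF4 had one in 8 and TCF3 in 7. MEF2D and the class IIa histone deacetylases HDAC4, HDAC5, HDAC7 and HDAC9 had one in every library, with HDAC4 at a median place of 4.8%. FOXC1 and FOXQ1, the neighbours of FOXF2 on chromosome 6, had one in 6 libraries each, all 4 stiff and 2 soft.

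To ask how presence varied with stiffness, sites with a peak in both replicates of one group and in neither replicate of the other were counted. These calls compare 2 libraries with 2, carry no p-value and follow the length of the lists. The comparisons share samples, since each group enters 2 of them. In D2 stiff but not D2 soft there were 8 member sites (10.8%, against 7.45% of all consensus sites), and in D2 soft but not D2 stiff there were 0 (against 0.391%). Without D2 soft replicate 1 the first count was 8 (against 8.54% of all sites) and the second 4 (5.41%, against 4.70%). In D4 stiff but not D4 soft there were 9 (12.2%, against 6.72%), and in D4 soft but not D4 stiff there was 1 (1.35%, against 1.31%), a FOXF2 distal site at +34.8 kb (chr6:1424364-1424811) with fold enrichments of 4.25 and 7.30. Between days, 9 member sites had peaks in D4 soft but not D2 soft (12.2%, against 5.79%), and 9 in D4 stiff but not D2 stiff (12.2%, against 5.35%). The opposite counts were 0 in both, against 0.403% on the soft and 1.41% on the stiff matrix. The soft-matrix counts without D2 soft replicate 1 were 9 (12.2%, against 6.86%) and 2 (2.70%, against 5.41%).

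Single libraries weighed on these counts and on the background alike. The count for D2 stiff was 18 without D2 stiff replicate 1 (25.4%, against 14.9% of all sites). Without D2 soft replicate 2 it was 17, and the member share of 23.6% then lay below that of all sites, 29.7%. That for D4 stiff over soft was 15 without D4 soft replicate 1 (20.5%, against 15.6%) and 15 without D4 soft replicate 2 (21.4%, against 11.0%). The same count was 10 without D4 stiff replicate 1 (14.5%, against 9.66%) and 7 without D4 stiff replicate 2 (10.3%, against 8.48%). That for D4 soft over stiff was 3 without D4 soft replicate 1 (4.11%, against 2.01%) and 2 without D4 stiff replicate 1 (2.90%, against 2.98%). Between days on the soft matrix the count for D4 was 20 without D2 soft replicate 2 (27.8%, against 26.0%), 16 without D4 soft replicate 1 (21.9%, against 10.2%) and 14 without D4 soft replicate 2 (of 70 sites, against 13.6%). On the stiff matrix it was 15 without D2 stiff replicate 1 (21.1%, against 9.53%) and 16 without D2 stiff replicate 2 (22.9%, against 12.8%). The 3 counts of 0 reached at most 4 when single libraries were left out. With all 8 libraries, in the 4 directions towards the longer lists the member share was thus 10.8% to 12.2% and the background 5.35% to 7.45%. With every list reduced to its best 29789 peaks, these counts were 0 or 1 of 22 member sites. The background was then 2.75% to 4.06%.

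**Figure D3:**
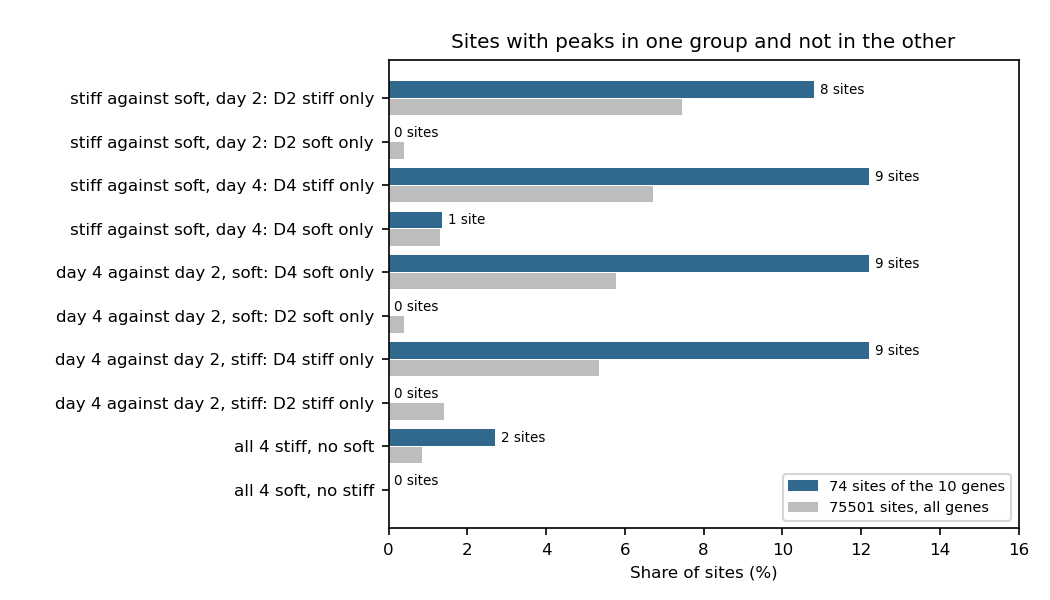
Share of sites (%) with a peak in both replicates of one group and in neither of the other, for the 74 member sites (dark bars, with counts) and all 75501 consensus sites (grey bars), and in the lowest pair of rows sites in all 4 libraries of one matrix and none of the other. The 9 sites of D4 stiff only make 12.2% of the member sites, against 6.72% of all.

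The shortest list had the fewest member sites and the D4 stiff lists, the longest, the most. The number followed list length in all libraries but D4 soft replicate 2, with 50 sites in a list of 56362 peaks. Member sites with a peak numbered 23 and 40 on soft and 46 and 49 on stiff gels at D2, and 47 and 50 on soft and 62 and 64 on stiff gels at D4. As a share of 74 sites this ran from 31.1% to 86.5%, and that of all consensus sites from 38.3% to 85.8%. Relative to list length, the windows held 7.72 and 7.71 peaks per 10000 on soft and 8.44 and 8.64 on stiff gels at D2, and 8.22 and 9.58 on soft and 9.71 and 9.06 on stiff gels at D4. The D2 stiff pair lay above the D2 soft pair and the D4 pairs overlapped. For single genes, 0 of 10 had more window peaks in every stiff than in every soft library, against 5.07% of protein-coding genes, and 0 had fewer, against 0%. The first count was 1 without D2 stiff replicate 1 (against 9.91%), D2 stiff replicate 2 (against 7.47%) or D4 soft replicate 1 (against 11.5%), and 2 without D4 soft replicate 2 (against 6.90%). Among peaks with a −log10 q of at least 3 it was 3 of 10, GATA4, HAND2 and MEF2C, against 6.01% of protein-coding genes.

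A set of 2 sites had a peak in all 4 stiff and no soft library (2.70%, against 0.850%), and 0 had the reverse (against 0.0172%). The first was the GATA6 +61.2 kb site, intergenic downstream of the gene, with fold enrichments of 3.82 and 6.67 in D2 stiff and 5.62 and 6.82 in D4 stiff, at 65.2% to 96.6% of the lists. The second, in the GATA4 window (chr8:11665499-11666480), was a promoter of the neighbouring gene FDFT1, which encodes squalene synthase, at 5.68 and 4.71 in D2 stiff and 4.39 and 7.48 in D4 stiff. With every list reduced to its best 29789 peaks, the length of the shortest, 0 member sites had this pattern (against 0.279% of all sites). Without D2 stiff replicate 1 there were 4 (5.63%, against 1.90%).

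The GATA6 +54.2 kb site stood apart from the other sites of this kind by its strength. It lies 638 bp wide in an intron of the long non-coding gene ENSG00000264825, downstream of GATA6. Its fold enrichment was 11.4 and 12.9 on stiff gels at D2, and 14.1 and 10.6 on soft and 13.4 and 17.0 on stiff gels at D4, with places of 19.9%, 18.6%, 8.2%, 16.9%, 12.0% and 5.7% of the lists. The pileup was 21 and 27 fragments on stiff gels at D2, and at D4 it was 36 and 26 on soft gels and 49 in both stiff libraries. In bulk chromatin, fewer cells with an open site and less opening in each cell cannot be told apart. No peak was called there in either D2 soft library. The lowest pileups of called peaks anywhere in those lists were 3 (replicate 1) and 4 fragments (replicate 2). These do not give the limit of calling at this site, and the part of depth in the missing peak was not tested.

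**Figure D4:**
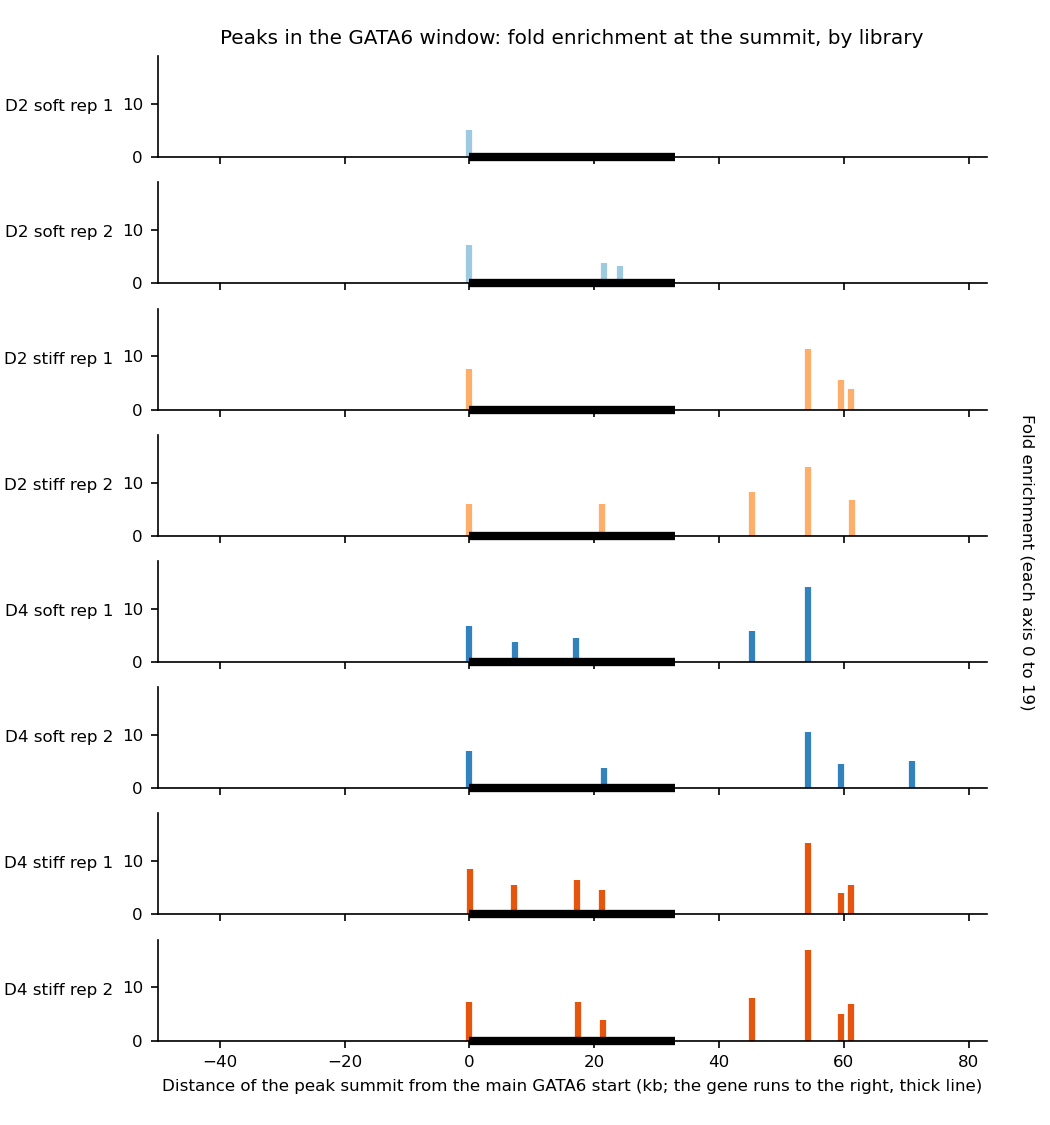
Peaks in the GATA6 window in each of the 8 libraries. The horizontal axis gives the distance of the summit from the main start in kb, the thick line is the gene body, and the height of a bar is the fold enrichment at the summit. The bar at +54.2 kb is at 10.6 to 17.0 in 6 libraries and is missing in both D2 soft libraries, which do carry the promoter peak.

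Its standing among all sites was looked up after these values were seen and is a description. Of the 9290 consensus sites in the top 20% of both D2 stiff lists, 8392 had a peak in both D2 soft libraries, 869 in 1 and 29 (0.312%) in neither. Judged by D2 soft replicate 2 without replicate 1, 38 (0.409%) had no peak. The GATA6 site was the 1 member among the 9290. A peak in all libraries but the D2 soft pair was found at 1277 sites (1.69% of all) and at 5 member sites (6.76%), which were GATA4 +17.2 kb, GATA6 +54.2 kb, HAND2 +13.1 kb, MEF2C +55.8 kb and MEF2C +202.7 kb. With D2 soft replicate 1 left out, the count was 1663 (2.21% of all) and 5 member sites (6.76%). Of the 1277 sites 1 had a better mean place over the 6 libraries than the GATA6 site. The GATA6 site kept its 6 libraries in lists of equal length and among peaks with a −log10 q of at least 3. Its high places fixed this beforehand, since both settings drop peaks from the end of a list, so it is no separate support. In the lists of equal length 1 of the 22 member sites, this one, was in D2 stiff and not in D2 soft (4.55%, against 4.06% of all sites).

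The other 4 sites absent from the D2 soft pair were weaker. MEF2C +55.8 kb (chr5:88122900-88123576), an alternative promoter, had fold enrichments of 7.96 and 8.70 on stiff gels at D2, and 7.83 and 7.0 on soft and 6.78 and 8.91 on stiff gels at D4, at 47.4% to 69.0% of the lists. MEF2C +202.7 kb (chr5:87976141-87976539), in an intron of LINC00461, ranged from 5.11 to 8.13, HAND2 +13.1 kb (chr4:174437829-174438751) from 3.85 to 6.99 and GATA4 +17.2 kb (chr8:11578730-11579122) from 3.19 to 6.45.

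Some sites had peaks in D4 libraries alone, among them sites at MEF2A and LHX2. The depth estimate was 2.69 to 3.15 fragments per kb in the D4 and 0.78 to 2.32 in the D2 libraries, and its part was not tested. The +116.9 kb site (chr15:100222458-100223669), intronic and at a Y RNA start, had no peak in the 4 D2 libraries and fold enrichments of 9.85 and 4.48 on soft and 7.20 and 6.19 on stiff gels at D4. The +183.5 kb site (chr15:100289390-100289932) showed the same presence, at 6.42 and 3.84 on soft and 6.04 and 6.19 on stiff gels at D4. At LHX2 the distal sites 54.4 kb upstream (chr9:126719556-126719831) and at +29.0 kb (chr9:126802750-126803411) had a peak in both D4 stiff libraries and in 0 of the other 6. Their fold enrichments were 3.84 and 3.72 for the first and 5.87 and 4.69 for the second, at 74.8% to 97.0% of the lists. In lists of equal length, of these 4 sites MEF2A +116.9 kb kept 1 library and the others 0.

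At the 17 member sites found in every library, the enrichment itself was compared. The within-library ranks of fold enrichment over the 24246 sites found in every library were turned into normal scores (0 being the median site) and tested with limma over all of them. At adjusted p under 0.05 limma called 0 of 17 member sites for stiff against soft at D2 (against 0.00412% of all sites), 0 at D4 (against 0.00825%), and 0 for D4 against D2 on either matrix and for the interaction of stiffness and day (against 0% in each). At an unadjusted p under 0.05 limma found 0 member sites for stiffness at either day. It found 1 each for the days on the soft matrix, the days on the stiff matrix and the interaction. Of all 24246 sites, 1856 and 1297 passed it for stiffness at D2 and D4. The days on the soft matrix had 1715, those on the stiff matrix 1222 and the interaction 1278, so the members did not stand out. The median difference of the 17 sites, stiff less soft, was -0.11 at D2 and -0.14 at D4, against -0.02 for all sites in both. With 2 libraries a group, differences below the spread between replicates were not detectable, and larger ones could be missed. At LHX2 +43.1 kb a D4 less D2 difference of 1.29 ± 0.57 (SE) on the stiff matrix had a limma adjusted p of 0.925. A count of 0 therefore does not show that the sites were unchanged. Since the labels do not say whether replicates were separate cultures, the p-values measure the spread between these libraries.

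**Figure D5:**
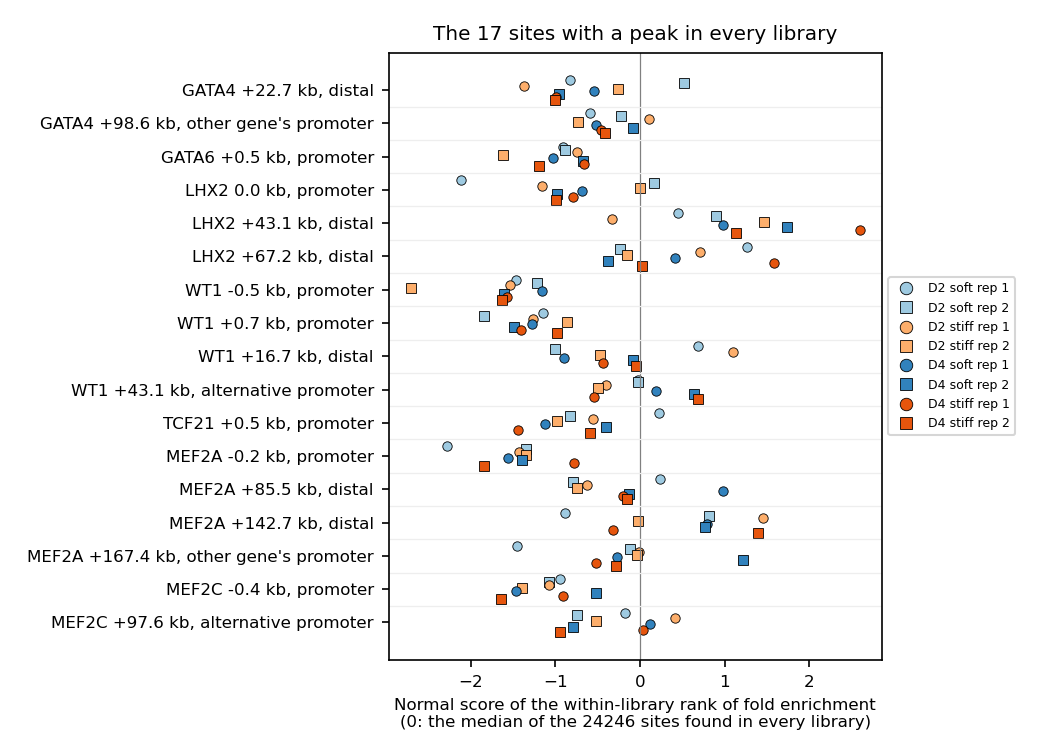
Normal scores of the within-library ranks of fold enrichment (horizontal axis, 0 is the median of 24246 sites) at the 17 member sites found in all 8 libraries, 1 symbol a library. The main promoters lie left of 0 except for 1 value each at LHX2 and TCF21, and the colours of the 4 groups are mixed at most sites.

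Main promoters of the members were less enriched than the median common site, since 54 of their 56 scores (7 sites in 8 libraries) were below 0, with a median of -1.15. The 6 distal sites had a median score of -0.07. The largest time difference on the stiff matrix was that of LHX2 +43.1 kb, with scores of -0.33 and 1.47 at D2 and 2.60 and 1.13 at D4, which overlapped. Its difference, D4 less D2, was 1.29 ± 0.57 (SE, 2 libraries a group), with a limma adjusted p of 0.925. The MEF2A +167.4 kb site (chr15:100273075-100274005), the promoter of the neighbouring gene LYSMD4, had scores of -1.45 and -0.11 on soft and -0.02 and -0.03 on stiff gels at D2, and -0.27 and 1.22 on soft and -0.51 and -0.28 on stiff gels at D4. Its D4 less D2 difference on the soft matrix was 1.26 ± 0.54 (SE, limma adjusted p = 0.664). The lowest of its 8 scores was that of D2 soft replicate 1, the library with the lowest depth.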

How the data were processed

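ATAC-seq peak lists of LX-2 cells were analysed, 2 libraries for each matrix (soft or stiff) and day (D2 or D4). Per the submitters' processing notes and methods, the authors trimmed reads with Trim Galore, aligned them to hg19 with Bowtie2 2.4.1, used bedtools 2.24.0 and Picard, and called peaks with MACS2 at a q-value up to 0.05, in each library on its own. The options, read filters and treatment of the Tn5 offset are not given in the sources used here. The fold enrichment the authors deposited is a ratio of summit pileup to local background. The deposited −log10 p and −log10 q values refer to the same background, the deposited score is 10 times the −log10 q and was not used, and the summit offset is a distance in bp, as the authors' caller wrote it. The reads behind the authors' comparison of counts were not used here, so presence and within-list ranks were compared.

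Peaks overlapping by at least 1 bp were merged, and consensus sites were the regions with peaks of at least 2 libraries. Genes and starts came from GENCODE release 44 on GRCh37, and a site was a promoter where its middle lay within 1 kb of a start. The main start is that of the MANE transcript. Motifs and sequences were read from the GRCh37 genome. The sequence of 1 strong site and the value of 1 marker gene are not reported here. The pileup and background of a peak were solved from its fold enrichment and p-value, under the Poisson model of MACS2, and the lowest background gave fragments per kb as a relative depth. Intervals were not computed, because the lists give no read totals. Normal scores of within-library ranks were tested with limma 3.58.1 (R 4.3.3) with 4 group means, Benjamini-Hochberg over all 24246 sites, after tests on simulated data. Python 3.11.15 with pandas 2.3.3 was used elsewhere. Named sites were the promoters, the best-ranked distal site of each gene and the sites of 1 group only. The members, gene lists, motifs and tests were chosen with earlier results of these data known. Alternatives were a −log10 q of at least 3, lists of equal length, sites from windows of 100 bp on each side of summits, a peak in at least 1 replicate, ranks of −log10 p, a replicate block, fits to 4 libraries and each library left out.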

Additional observations from a re-analysis of the deposited data

Results flagged for a closer look

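A pair of values stood out among the window counts, the fold enrichment of the 17 sites found in every library and the depth estimates. Over 58 groups of 4 libraries (soft or stiff), the gap of the extreme library to its nearest neighbour, relative to the whole range, passed Dixon's 95% critical value in 1, and chance alone gives about 1 in 20 groups. This was the WT1 +43.1 kb internal start, where D4 stiff replicate 2 had a fold enrichment of 12.9 and the other stiff libraries had 8.48, 8.85 and 8.77. The second was the LYSMD4 promoter in the MEF2A window at +167.4 kb. At this 1 site of 17 both stiff libraries lay above both soft libraries at D2 and below both at D4. How many of all 24246 sites had this pattern was not counted, so the 1 of 17 has no background beside it. The difference of the stiffness effects, D4 less D2, was -1.64 on the normal score scale (limma interaction, adjusted p = 0.920 over 24246 sites), so it did not pass the adjusted threshold.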

How the results depend on the processing

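limma called 0 of the member sites in each of 74 fits of a contrast, among them ranks of −log10 p and the fits to 4 libraries. Without D2 soft replicate 2 it called 296 of all sites for stiffness at D2 and 222 between days on the soft matrix, with 0 of them at members. The D2 soft arm is then the shallow replicate 1 on its own, assumed to vary like the other groups. With the replicate number as a block (replicate block) 0 member sites were called in each contrast. The numbers are not known to pair the libraries, since the replicate differences of 2 groups correlated at -0.04 to 0.08 over 24246 sites. Counts of presence moved with list length. In lists of equal length the member windows held 22 consensus sites, 6 with a peak in every library (27.3%, against 39.7% of all sites). There 0 were in all stiff and no soft libraries (against 0.279%), and 1 gene, WT1, had a promoter peak in every library. The sites of one group only became 1 for D2 stiff, 1 for D2 soft, 0 for D4 stiff and 0 for D4 soft between matrices, and 1 for D4 on each matrix between days. At a −log10 q of at least 3, 1 site was in all stiff and no soft libraries (1.56%, against 1.06% of all sites). At that setting 3 genes (against 6.01% of protein-coding genes) had more window peaks in every stiff library. Sites from summit windows gave 11 in every library (14.1%, against 25.2%) and 1 in all stiff and no soft (1.28%, against 0.834%). They gave 0 for D4 soft only between matrices (against 1.89%) and 1 for D2 stiff only between days (1.28%, against 2.14%). With 1 replicate sufficing, the counts were 22 stiff only and 5 soft only at D2 (29.7% and 6.76%, against 20.1% and 5.45%). At D4 they were 13 and 3 (17.6% and 4.05%, against 14.0% and 4.43%). Between days they were 21 and 4 on the soft matrix (28.4% and 5.41%, against 18.4% and 6.10%). On the stiff matrix they were 14 and 4 (18.9% and 5.41%, against 11.7% and 4.47%). Leaving out 1 library at a time, D2 stiff only ran from 8 to 18 and D2 soft only from 0 to 4, D4 stiff only from 7 to 15 and D4 soft only from 1 to 3. Between days the counts were 9 to 20 and 1 to 2 on the soft matrix, and 8 to 16 and 0 to 3 on the stiff matrix. Sites in all stiff and no soft libraries ran from 2 to 4 (all sites 0.939% to 2.11%) and the reverse from 0 to 1 (all sites 0.0246% to 0.169%). Genes with more window peaks in every stiff library ran from 0 to 2 (5.12% to 11.5% of protein-coding genes). Of 198 recomputed counts, 148 stayed within 1.5 times of the value reported and 50 did not. The 148 include the limma counts of member sites, which were 0 in every fit and so are no sign of stability. The cause of these shifts was not tested, beyond the shorter lists or fewer libraries that each alternative leaves by construction. A missing peak in a short list does not show closed chromatin, and the depth of the lists is known as an estimate alone.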
